A study of Mus musculus with 12 samples.

Results

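Transcript levels of 4 genes that handle sodium at the cardiac cell membrane were compared between ventricles and genotypes: Slc8a1, the sodium-calcium exchanger (NCX1); Atp1b1, the beta subunit that the sodium pump needs to reach the membrane; Fxyd1, phospholemman, a small regulator of the same pump; and Scn4b, an auxiliary beta subunit of the voltage-gated sodium channel. They were chosen by gene symbol, and all 4 were found among the 33641 genes listed in every one of 12 mouse heart samples. The groups were the left ventricle (LV) and the right ventricle (RV) of WT-PLN mice and of R14del-PLN mice, with 3 samples each. PLN is phospholamban, the inhibitor of the calcium pump SERCA2a, and R14del is a deletion of 1 amino acid that is linked to arrhythmogenic cardiomyopathy. Both lines carried human PLN coding sequence at the start codon of the mouse Pln gene, wild type in the controls and R14del, in the heterozygous state, in the mutants. Both were hybrid lines of mixed background, from chimeric males bred with mice carrying Sox2-Cre, by the methods of the study, and the sample labels give strain C57BL/6J, an age of 12 to 14 weeks, genotypes wild-type and R14del-PLN, and KO in the titles of the mutants.

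In a cardiomyocyte, sodium enters with each beat through voltage-gated channels whose gating is tuned by beta subunits. The sodium pump, a complex that includes a beta subunit, returns sodium to the outside, and phospholemman restrains it until it is phosphorylated. The exchanger uses the sodium gradient to remove the calcium that entered during the beat, so these proteins tie the sodium balance to the calcium balance. They are of interest here because the study asked how mutant PLN alters calcium handling and rhythm in the RV.

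Values are TPM, a transcript abundance scaled by transcript length and by the total of the sample, so levels of different genes may be set beside each other. Each sample sums to 1000000 TPM, sequencing depth cannot be read from them, and a counting error is therefore missing from all values. Defining cardiomyocyte genes were high in every sample (7 markers, summed level 18987 to 28552 TPM). The 13 mitochondrially encoded genes took 37.3% to 54.5% of the TPM, and the lowest share was in LV R14del-PLN replicate 3. Atrial cardiomyocyte genes (6 markers, Bmp10 under 1 TPM in all samples) summed to 621 TPM in LV WT-PLN replicate 3, 696 TPM in RV WT-PLN replicate 2 and 400 TPM in RV R14del-PLN replicate 2, while the remaining samples had 17.4 to 102 TPM. The mice were males by the methods, but 4 Y-linked genes were at 0.0159 to 0.191 TPM in replicate 1 of both WT-PLN groups and at 3.03 to 30.6 TPM in the other 10 samples. RV R14del-PLN replicate 3 came from another sequencing run than the other samples, as the name of its deposited table shows. Pln itself was at 1559 to 1963 TPM over the 12 samples, and a level of this kind cannot show a deletion of 3 bases, so it does not check the genotype labels.

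In GRCm38 (GENCODE M21), Slc8a1 lies on chromosome 17 from 81373105 to 81738377 on the minus strand, and its span is overlapped on the other strand by AC122399.1 and Gm11096. Atp1b1 lies on chromosome 1 from 164437109 to 164458355 on the minus strand, and its last 617 bases overlap Nme7 on the other strand, which had a mean level of 1.94 TPM. Fxyd1 lies on chromosome 7 from 31051678 to 31057199 on the minus strand, and Scn4b on chromosome 9 from 45138395 to 45154152 on the plus strand, both with no overlapping gene. The libraries were stranded by the methods of the study, but whether strand was used in counting is not stated, so whether reads of overlapping genes were kept apart is not known. None of the 4 genes has a near-identical copy in another annotated gene (at least 95% identity over at least 80% of the shorter transcript).

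The 250 bases before the RefSeq start site (GRCm38.p6, written 5′ to 3′ on the strand of the gene) are shown for Atp1b1, whose mean level was higher in R14del-PLN in both ventricles, and for Slc8a1, whose mean level was lower in both, as a contrast (neither difference passed the test). Capitals mark matches to the GC box GGGCGG, the CCAAT box CCAAT, the TATA box TATAAA, the E-box CACGTG and the GATA motif AGATAA on either strand.
Atp1b1, chr1:164458356-164458605: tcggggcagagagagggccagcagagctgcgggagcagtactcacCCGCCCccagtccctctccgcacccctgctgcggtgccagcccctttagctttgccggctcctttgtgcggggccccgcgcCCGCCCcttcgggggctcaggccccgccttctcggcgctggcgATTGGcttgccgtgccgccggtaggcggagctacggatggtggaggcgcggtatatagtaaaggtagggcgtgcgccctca
Slc8a1, chr17:81738388-81738637: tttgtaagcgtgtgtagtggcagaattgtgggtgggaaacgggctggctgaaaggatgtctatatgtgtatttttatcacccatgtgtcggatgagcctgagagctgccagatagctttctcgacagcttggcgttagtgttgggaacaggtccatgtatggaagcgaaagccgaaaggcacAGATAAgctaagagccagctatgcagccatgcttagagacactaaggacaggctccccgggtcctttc

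The Atp1b1 window held 2 GC boxes and 1 CCAAT box in 70.4% GC sequence, and the Slc8a1 window, at 50.4% GC, held 1 GATA motif only. GC boxes were found in 32.7% of 32851 RefSeq windows of this length, CCAAT boxes in 33.8%, TATA boxes in 12.4%, E-boxes in 6.02% and GATA motifs in 9.99%. In the windows of the other members, Scn4b had 1 CCAAT box and Fxyd1 had no match. The RefSeq start lies 2346 bases from the GENCODE start for Fxyd1 and 229 bases for Scn4b. The Fxyd1 window is thus inside the GENCODE span of the gene, and the Scn4b window mostly so. These letters are a description of the windows and were not tested against the levels.

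Slc8a1, the exchanger, was expressed at 55.3 to 93.1 TPM. In LV WT-PLN its level was 65.7, 66.7 and 88.2 TPM (replicates 1 to 3), and in LV R14del-PLN it was 55.3, 62.7 and 93.1 TPM. In RV WT-PLN the level was 65.4, 62.6 and 90.6 TPM, and in RV R14del-PLN it was 56.1, 80.2 and 60.1 TPM. Replicate 3 was the highest in 3 of the 4 groups, and the groups overlapped in each comparison.

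Atp1b1, the pump beta subunit, was at 79.1, 77.9 and 99.5 TPM in LV WT-PLN and at 80.9, 84.7 and 128 TPM in LV R14del-PLN. In RV WT-PLN it was at 76.7, 77.0 and 96.6 TPM, and in RV R14del-PLN at 91.2, 113 and 94.4 TPM. The mutant means were higher in each ventricle, but the mutant and WT-PLN samples overlapped in both. The highest value, in LV R14del-PLN replicate 3, came from the sample with the lowest mitochondrial share, which also had the highest Slc8a1 and Scn4b levels, and its part in these levels was not tested.

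Fxyd1, the pump regulator, was the most abundant member. It was at 410, 456 and 475 TPM in LV WT-PLN, 401, 374 and 471 TPM in LV R14del-PLN, 388, 403 and 369 TPM in RV WT-PLN, and 382, 310 and 377 TPM in RV R14del-PLN. All LV WT-PLN samples were above all RV WT-PLN samples, while the mutant ventricles overlapped.

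Scn4b, the sodium channel beta subunit, was the least abundant, with a highest level of 6.31 TPM. It was at 3.80, 3.90 and 4.03 TPM in LV WT-PLN and 3.20, 4.32 and 6.31 TPM in LV R14del-PLN. In RV WT-PLN it was at 1.53, 2.34 and 3.04 TPM, below every LV WT-PLN sample, and in RV R14del-PLN at 1.44, 4.47 and 3.80 TPM. The lowest sample in each RV group was replicate 1.

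**Figure D1:**
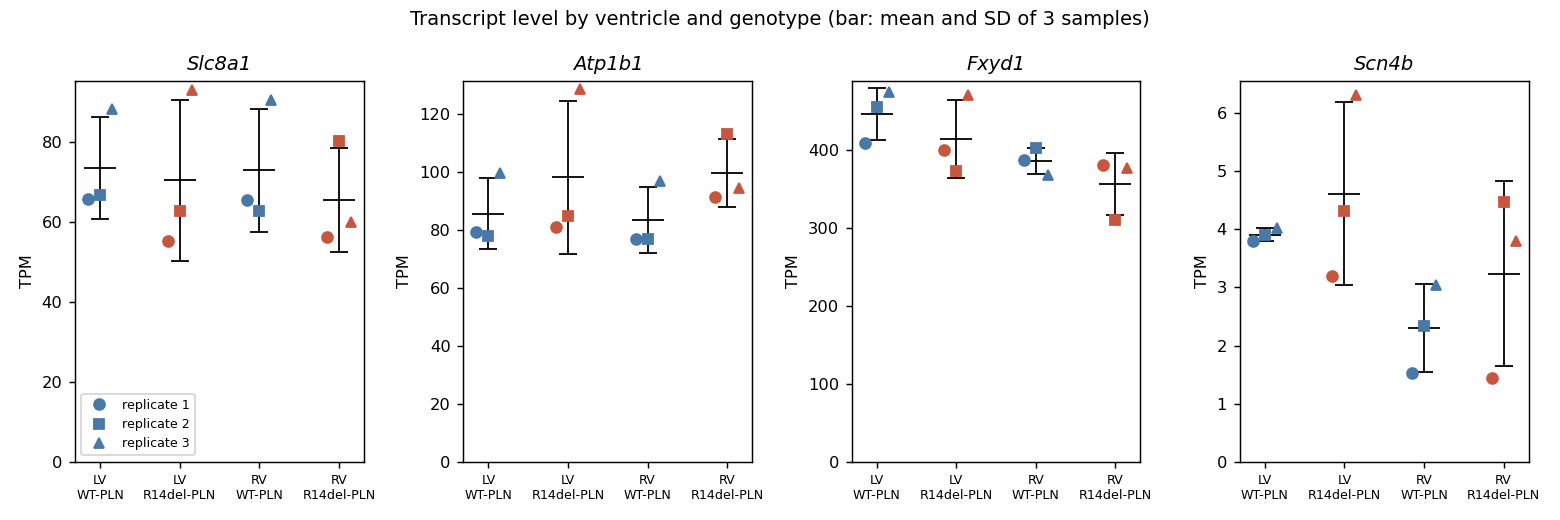
Level in TPM (vertical axes, from 0) of the 4 genes in the 12 samples by ventricle and genotype; points are samples, shapes are replicate numbers, and bars give mean and SD (n = 3). Points of the genotypes overlap in both ventricles for all 4 genes, and the RV WT-PLN points lie below the LV WT-PLN points for Fxyd1 and Scn4b.

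By mean level, Slc8a1 went from LV WT-PLN (73.5 ± 12.7 TPM, SD, n = 3) over RV WT-PLN and LV R14del-PLN to RV R14del-PLN (65.5 ± 12.9 TPM). Atp1b1 was ordered from RV R14del-PLN (99.6 ± 11.9 TPM) over LV R14del-PLN and LV WT-PLN to RV WT-PLN (83.4 ± 11.4 TPM). Fxyd1 ran from LV WT-PLN (447 ± 33.5 TPM) over LV R14del-PLN and RV WT-PLN to RV R14del-PLN (356 ± 39.9 TPM). Scn4b ran from LV R14del-PLN (4.61 ± 1.57 TPM) over LV WT-PLN and RV R14del-PLN to RV WT-PLN (2.30 ± 0.752 TPM). No pair of neighbours in any of these orders differed by more than the larger of their SDs.

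The genotypes were compared within each ventricle with limma on log2(TPM + 1), a scale that understates changes of low genes such as Scn4b. Calls required an adjusted p (Benjamini-Hochberg) no higher than 0.05 together with a change of 1.5-fold or more. None of the 4 genes was called in LV, where 0.519% of 12526 tested genes were called, or in RV, where 0.271% were, and none of them had TPM ranges without overlap in LV or in RV, against 11% of tested genes in each. In LV, R14del-PLN to WT-PLN differences (log2 fold change ± SE) were 0.17 ± 0.18 for Atp1b1 (adjusted p = 0.833), 0.16 ± 0.28 for Scn4b (adjusted p = 0.916), -0.09 ± 0.21 for Slc8a1 (adjusted p = 0.941) and -0.11 ± 0.12 for Fxyd1 (adjusted p = 0.850).

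In RV, the log2 fold change of R14del-PLN against WT-PLN was 0.25 ± 0.18 for Atp1b1, 0.30 ± 0.28 for Scn4b, -0.15 ± 0.21 for Slc8a1 and -0.12 ± 0.12 for Fxyd1, each at an adjusted p of 1 in limma. The Scn4b value was 0.66 without RV R14del-PLN replicate 1, 0.08 without replicate 2 of that group, 0.17 without its replicate 3 and 0.12 or 0.46 without RV WT-PLN replicate 1 or 3. The 95% intervals, of the fold change of TPM + 1, are each for 1 gene and not adjusted for the number of tested genes. Since calls used an adjusted p, changes beyond these limits could also have gone uncalled. For Atp1b1 the interval of the fold change ran from 0.862 to 1.47 in LV and from 0.913 to 1.56 in RV, and for Slc8a1 from 0.687 to 1.29 and from 0.656 to 1.24. The Fxyd1 interval was the narrowest, 0.768 to 1.12 in LV and 0.762 to 1.11 in RV, and that of Scn4b the widest, 0.734 to 1.69 and 0.812 to 1.87.

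RV was then compared with LV within each genotype. No gene was called in WT-PLN (0% of tested genes, with 1811 genes at an unadjusted p under 0.05 in limma) or in R14del-PLN (0%, with 823 such genes). Scn4b had the largest difference, with a log2 fold change of RV against LV of -0.60 ± 0.28 in WT-PLN (limma, adjusted p = 0.346) and -0.45 ± 0.28 in R14del-PLN (adjusted p = 0.851). The R14del-PLN value of Scn4b depended on single samples. It was -0.09 without RV R14del-PLN replicate 1, -0.68 without replicate 2 of that group and -0.24 without LV R14del-PLN replicate 3. The WT-PLN value of Scn4b was -0.42 without RV WT-PLN replicate 1 and -0.75 without replicate 3 of that group. Fxyd1 followed with -0.21 ± 0.12 in WT-PLN (adjusted p = 0.423) and -0.22 ± 0.12 in R14del-PLN (adjusted p = 0.838). The R14del-PLN difference of Fxyd1 was -0.00128 after quantile normalization and -0.06 with the mitochondrially encoded genes removed. Slc8a1 and Atp1b1 were within 0.09 of 0 on the log2 scale in both genotypes.

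Fxyd1 and Scn4b, 2 of the 4 genes, had TPM ranges in WT-PLN that were lower in RV without overlap, as did 25.2% of all tested genes, so that this separation was common in these samples (26.1% in either direction, and 9.98% in R14del-PLN, where none of the 4 did). The median log2 fold change of all genes was itself -0.165 in this comparison, and -0.0589 with the mitochondrially encoded genes removed. The mitochondrial share was 44.0% to 47.3% in LV WT-PLN and 48.7% to 52.7% in RV WT-PLN. What shifted the median was not tested. Of 11 marker lists of cell types, 0 markers were called in this comparison (limma). With 0% of all tested genes called, that count could not be other than 0 and says nothing about cell types. The marker sums differed in how they were placed. The 3 ventricular cardiomyocyte markers summed to 17819 to 18443 TPM in LV WT-PLN and 15061 to 15744 TPM in RV WT-PLN. The 6 endothelial markers summed to 148 to 188 TPM and 109 to 127 TPM, and the 5 red blood cell markers to 2087 to 2316 TPM and 1461 to 1736 TPM. The sums of the 7 cardiomyocyte markers overlapped (20929 to 25109 TPM and 20017 to 23501 TPM), with a median log2 fold change of -0.000654, as did the fibroblast sums (301 to 529 TPM and 315 to 415 TPM) and the macrophage sums (66.0 to 96.4 TPM and 55.4 to 67.5 TPM). Red blood cell sums were also lower in RV R14del-PLN (956 to 1368 TPM) than in RV WT-PLN without overlap. In LV R14del-PLN (1093 to 2142 TPM) they overlapped those of LV WT-PLN. The part of these markers in the member differences was not tested. In bulk samples fewer cells of a type and less RNA per cell cannot be told apart. After quantile normalization the Fxyd1 difference was 0.01 and that of Scn4b -0.42 (limma, adjusted p = 0.989 and 0.614). With the same-numbered ventricles as one heart in a fixed block, 12 genes were called in WT-PLN, none of them a member, and the adjusted p (limma) was 0.160 for Scn4b and 0.463 for Fxyd1.

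The genotype difference was not shown to depend on the ventricle for any member. The interaction (the RV difference minus the LV difference, log2) was 0.15 ± 0.39 for Scn4b, 0.08 ± 0.25 for Atp1b1, -0.07 ± 0.30 for Slc8a1 and -0.01 ± 0.18 for Fxyd1, with no gene of all tested called (0%, and 127 genes at an unadjusted p under 0.05 in limma).

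**Figure D2:**
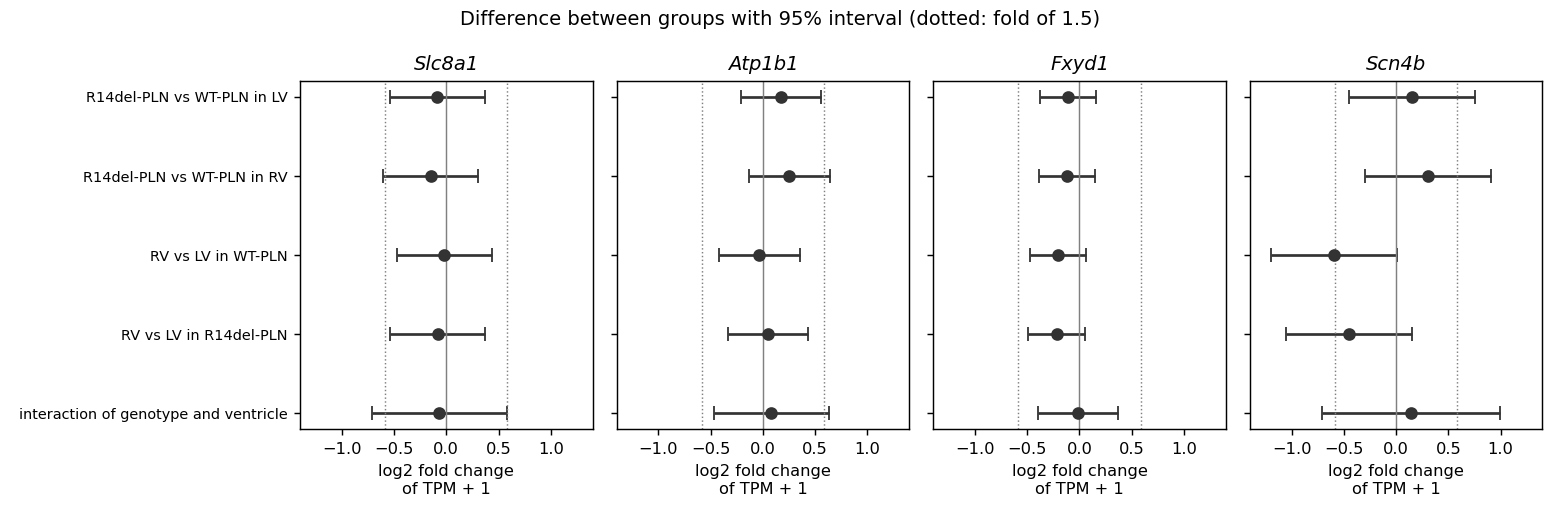
Log2 fold change of TPM + 1 (horizontal axes) with 95% interval from limma for the 4 genes in the 5 comparisons (rows); dotted lines mark a fold of 1.5. Each interval includes 0, and the one nearest to leaving it is Scn4b in RV against LV of WT-PLN (-1.20 to 0.00483).

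Since a common scaling factor cancels in a ratio of genes within a sample, 2 ratios were also compared. Atp1b1 was divided by Atp1b3, the second most abundant beta subunit of the pump, a denominator chosen after the values were seen. The ratio was 3.72, 3.58 and 3.50 in LV WT-PLN and 4.44, 4.56 and 4.99 in LV R14del-PLN. In RV WT-PLN samples it was 4.43, 3.95 and 4.31, and in RV R14del-PLN samples 4.33, 5.77 and 4.98. The genotypes were apart in LV and overlapped in RV.

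The mean ratio of Atp1b1 to Atp1b3 was 1.30-fold higher in R14del-PLN in LV (4.66 ± 0.288 against 3.60 ± 0.111, SD, n = 3). A two-sided exact permutation test gave p = 0.1, and 0.2 after adjustment over the 4 comparisons of this ratio. The smallest p that 3 against 3 samples allow is 0.1, so the limit for calls was out of reach for any ratio. The test therefore could not decide whether the ratio differed. The adjustment did not cover other denominators that were tried. Among the ratios of all other tested genes to Atp1b3, 16.2% were above in the mutant LV without overlap. In RV the difference was 1.19-fold (5.03 ± 0.724 against 4.23 ± 0.253, exact permutation p = 0.2). RV was above LV without overlap in WT-PLN (1.18-fold, exact permutation p = 0.1, adjusted 0.2), as were 10% of the ratios of other genes, and the ventricles overlapped in R14del-PLN (exact permutation p = 0.7).

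Both genes entered the LV ratio in opposite directions, neither called by itself. Atp1b3 had a log2 fold change of R14del-PLN against WT-PLN of -0.19 ± 0.16 in LV (limma, adjusted p = 0.775). With Atp1b2 as the denominator, also tried afterwards, the genotypes were apart in LV (1.25-fold) and overlapped in RV (1.02-fold). RV was above LV without overlap in WT-PLN for this ratio (1.30-fold). It shares its numerator and samples with the first ratio, and the share of other genes set apart over Atp1b2 was not counted.

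Slc8a1 relative to Atp2a2, which encodes the calcium pump SERCA2a that competes with the exchanger for calcium, did not separate any groups. Its group means ran from 0.0237 ± 0.00295 in RV R14del-PLN to 0.0247 ± 0.00212 in LV R14del-PLN, with exact permutation p from 0.8 to 1 in the 4 comparisons.

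**Figure D3:**
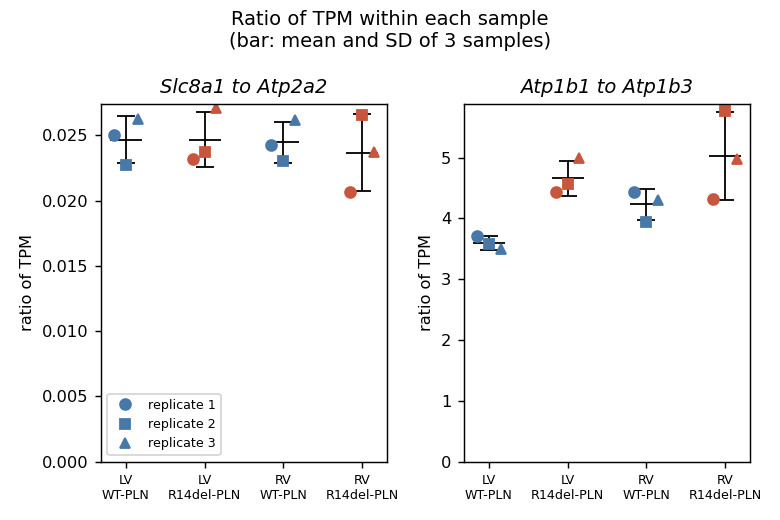
Ratio of TPM within a sample (vertical axes, from 0) of Slc8a1 to Atp2a2 and of Atp1b1 to Atp1b3 by ventricle and genotype; points are samples, shapes are replicate numbers, and bars give mean and SD (n = 3). The LV R14del-PLN points of Atp1b1 to Atp1b3 (4.44 to 4.99) lie above the LV WT-PLN points (3.50 to 3.72), and all groups overlap for Slc8a1 to Atp2a2.

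Each member was then set beside genes of its family. Slc8a1 made up 94.1% to 97.9% of the TPM of the 4 exchanger genes in the 12 samples, with Slc8a2 and Slc8a3 (both exchangers of brain or skeletal muscle) under 0.3 TPM throughout. Atp1b1 made up 74.7% to 82.5% of the 4 pump beta subunits, followed by Atp1b3. Fxyd1 made up 90.9% to 95.1% of the 7 FXYD genes. By group, the Atp1b1 share was 75.1 ± 0.578% in LV WT-PLN and 79.5 ± 1.02% in LV R14del-PLN (SD, n = 3). It was 78.2 ± 1.15% in RV WT-PLN and 80.6 ± 1.89% in RV R14del-PLN. Most of the rest of this family is Atp1b3 (mean 21.1 TPM, against 4.01 TPM for Atp1b2). The share therefore largely restates the ratio of Atp1b1 to Atp1b3 and is no separate result. Scn4b was above Scn2b (at most 0.375 TPM) and Scn3b (at most 0.497 TPM), which are also beta subunits of the sodium channel, in every sample. Another beta subunit of the channel is not reported here, so the place of Scn4b within its whole family is not given.

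**Figure D4:**
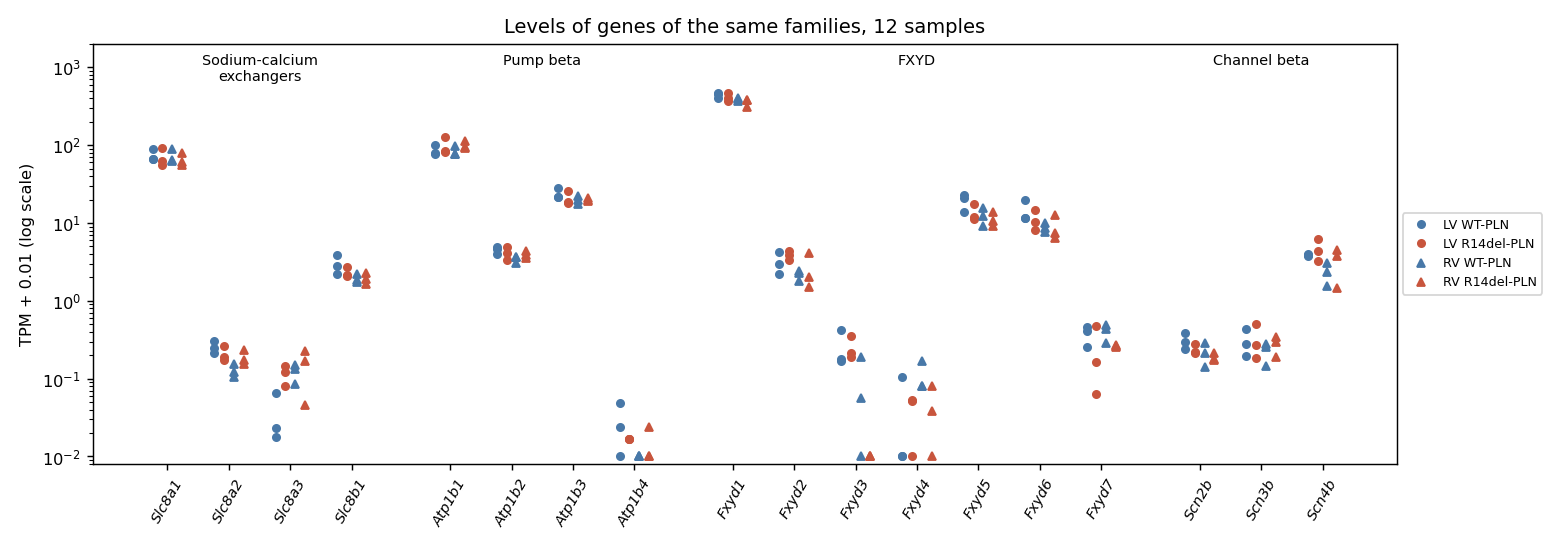
TPM + 0.01 on a log axis for genes of 4 families (horizontal axis); each point is 1 of 12 samples, with circles for LV, triangles for RV, blue for WT-PLN and red for R14del-PLN. Slc8a1, Atp1b1 and Fxyd1 are the highest genes of their families, and Scn4b (1.44 to 6.31 TPM) lies above Scn2b and Scn3b. Another beta subunit of the channel is not shown.

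Of 45 other genes reported from the lists of sodium channel, pump, exchanger and related transporter genes, 27 were expressed highly enough to be tested. None of the 27 was called in any of the 5 comparisons. Of all tested genes, 0.519% were called between genotypes in LV, 0.271% in RV and 0% in the other comparisons. The absence of calls is therefore no result about the list. At an unadjusted p under 0.05 in limma, none of the 27 was higher in any comparison. In the genotype comparisons, 1 of the 27 (3.7%) was lower in LV, where 7.85% of all tested genes were, and the same gene in RV, where 3.4% were. That gene, Slc12a2, the sodium-potassium-chloride cotransporter, was at 3.65, 4.08 and 5.38 TPM in LV R14del-PLN against 7.01, 7.54 and 7.48 TPM in LV WT-PLN. Its log2 fold change was -0.65 ± 0.15 (limma, adjusted p = 0.0965) in LV and -0.33 ± 0.15 (adjusted p = 0.792) in RV. The Slc12a2 ranges of mutant and WT-PLN samples were apart in LV and in RV. In each ventricle 11% of all tested genes were set apart in this way, counting either direction.

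In RV against LV of WT-PLN, 4 of the 27 genes (14.8%) were lower at this level, a share near the 13.8% of all tested genes and so no result about the list. They were Atp1b2, a minor beta subunit of the pump, Fxyd5 and Fxyd6, relatives of phospholemman, and Slc8b1, the sodium-calcium exchanger of mitochondria. Their log2 fold changes were -0.31 ± 0.14, -0.60 ± 0.23, -0.60 ± 0.26 and -0.41 ± 0.16 in that order (limma, adjusted p 0.294 to 0.337). In R14del-PLN 2 of the 27 were (7.41%), against 6.07% of all tested genes, namely Rangrf, which aids transport of the sodium channel to the membrane, with -0.30 ± 0.12, and Fxyd2, with -0.53 ± 0.24 (limma, adjusted p = 0.737 and 0.751).

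The median log2 fold change of the 27 genes was -0.11 in LV and 0.02 in RV for the genotypes, against -0.09 and -0.00338 for all tested genes. For RV against LV it came to -0.13 (WT-PLN) and 0.000187 (R14del-PLN), against -0.17 and -0.08. Fgf12, a sodium channel modulator, was at 1.65 TPM in LV WT-PLN replicate 3, 2.55 TPM in RV WT-PLN replicate 2 and 1.14 TPM in RV R14del-PLN replicate 2, the same 3 samples that had the high atrial marker sums, and at 0.0568 to 0.317 TPM in the other samples.

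The genes whose log levels moved most like each member over the 12 samples, out of all genes averaging 5 TPM or more, were Aebp2, Mylk4 and Dag1 for Slc8a1 (Pearson r 0.971 to 0.963) and Cpsf2, G3bp2 and Gmps for Atp1b1 (0.968 to 0.958). For Fxyd1 they were BC031181, Atp6v0e and Spr (0.968 to 0.952), and for Scn4b Rnf115, Ankrd1 and Prune2 (0.951 to 0.921). All samples share one scaling to a fixed sum, in which the mitochondrial share varied. With the mitochondrially encoded genes removed, r was 0.947 to 0.919 for the Slc8a1 genes, 0.961 to 0.928 for those of Atp1b1, 0.898, 0.821 and 0.886 for those of Fxyd1 and 0.897 to 0.887 for 2 of those of Scn4b, with 0.909 for Ankrd1. Among the members, r was 0.710 for Slc8a1 with Atp1b1 and -0.0289 for Atp1b1 with Fxyd1.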

How the data were processed

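Stranded polyA RNA-seq of 12 mouse heart samples (3 per group of ventricle and genotype) was used as TPM deposited by the authors, 1 value per gene. The study names CLC Genomics Workbench and GRCm38 for mapping; the program and annotation behind the TPM and the use of strand are not given in the sources used here. Depth is unknown. Groups came from the labels; p-values measure only the spread between these samples.

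Genes averaging 0.5 TPM or more (12526 of 33641) were tested with limma 3.58.1 in R 4.3.3 on log2(TPM + 1), with 1 fit of 4 group means, an intensity trend, 5 contrasts and Benjamini-Hochberg adjustment. The model was run on simulated data with independent samples and changes larger than those of the members. That run does not speak to linked samples or to small differences. Ratios within samples were compared with two-sided exact permutation tests. Same-numbered LV and RV samples deviated together in WT-PLN (correlations 0.321 to 0.657) and less so in R14del-PLN (0.0542 to 0.389); this pairing comes from the data, since the labels do not state it. Gene positions were read from GENCODE M21, copies were sought with BLAST 2.17.0, and promoter windows were taken from RefSeq. Some listed genes, and the ratios planned with them, are not reported here. Named genes were the members, the listed partners, the denominators and the 3 most similar genes per member; any other choice is given as made after the values were seen. The members and lists were chosen with earlier results of these data known.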

Additional observations from a re-analysis of the deposited data

How the results depend on the processing

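None of the 4 members was called under any alternative run; the adjusted p (limma) was lowest for Scn4b in RV against LV of WT-PLN, 0.160 with the heart as a fixed block. Atp1b1 stayed higher in R14del-PLN in RV under all 26 alternatives (log2 fold change 0.16 to 0.36). In LV it did so under all but 1, since without LV R14del-PLN replicate 3 it was -0.04. Many of these settings, such as the filters, the blocks and samples left out of the other ventricle, cannot change the estimate. The counts are therefore no measure of support for a difference that was not called. Without LV R14del-PLN replicate 3, Scn4b in LV was -0.05. Rescaling moved the median of all genes in RV against LV of WT-PLN by 0.170 (quantile), 0.169 (upper quartile) and 0.106 (mitochondrially encoded genes removed), in that of R14del-PLN by 0.133 with the last, and in the LV genotype comparison by 0.101 and 0.107 with the first 2. With these settings in that order, RV against LV of WT-PLN became 0.174, 0.187 and 0.118 for Slc8a1 and 0.171, 0.172 and 0.102 for Atp1b1, and, for the first 2, 0.00878 and 0.000546 for Fxyd1. Slc8a1 became 0.0604, 0.0124 and 0.0783 in RV against LV of R14del-PLN. In the LV genotype comparison Slc8a1 became 0.0253 (quantile) and 0.0444 (upper quartile) and Fxyd1 0.0205 (upper quartile). The interaction became -0.0274 for Atp1b1 (upper quartile), 0.0149 for Fxyd1 (mitochondrially encoded genes removed), and, without both WT-PLN replicate 1 samples (chosen after seeing the data), 0.0527 for Fxyd1 and -0.0164 for Scn4b.

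Leaving out 1 sample at a time gave these ranges of the log2 fold change. In the LV genotype comparison they were -0.302 to 0.0681 for Slc8a1, -0.0373 to 0.293 for Atp1b1 and -0.0543 to 0.345 for Scn4b, and in that of RV -0.304 to 0.0144 for Slc8a1 and 0.0754 (without RV R14del-PLN replicate 2) to 0.660 (without replicate 1 of that group) for Scn4b. For RV against LV they were -0.184 to 0.118 for Slc8a1 and -0.144 to 0.0782 for Atp1b1 in WT-PLN, and -0.237 to 0.133 and -0.0733 to 0.257 in R14del-PLN, where Scn4b ran from -0.677 (without RV R14del-PLN replicate 2) to -0.0923 (without replicate 1 of that group). In WT-PLN, Scn4b ran from -0.754 (without RV WT-PLN replicate 3) to -0.4185 (without replicate 1 of that group). For the interaction the ranges were -0.219 to 0.152 for Slc8a1 and -0.0387 to 0.291 for Atp1b1. They were -0.0832 to 0.0847 for Fxyd1 and -0.0796 to 0.505 for Scn4b.

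Counts of all genes called moved more. The 65 genes in LV became 22 with no filter, 103 with quantile normalization, 101 with upper quartile scaling, 119 with the replicate number as a fixed block, 231 without both WT-PLN replicate 1 samples, and 19 to 153 with 1 sample left out (153 without LV WT-PLN replicate 1, 20 without replicate 2 or 3 of that group, 19 and 27 without LV R14del-PLN replicates 1 and 2). The 34 genes in RV became 17, 86, 84, 62 and 88 under the same settings, 73 with mitochondrially encoded genes removed, and 14 to 48 with 1 sample left out (14 and 17 without RV WT-PLN replicates 2 and 3, 20 without RV R14del-PLN replicate 3). For RV against LV of WT-PLN the count of 0 became 1 with no filter, 1 with only the 6 samples, 2 with mitochondrially encoded genes removed, 12 with the heart as a fixed block, 2 without both replicate 1 samples, and 0 to 4 with 1 sample left out; for R14del-PLN and for the interaction it was 0 to 1. The cause of these shifts was not tested. For the genotype comparisons the samples share only a number (correlations of -0.0209 to 0.156 in LV and 0.061 to 0.219 in RV). The heart as a random block gave 68 genes in LV and 35 in RV and left the counts of 0 at 0, and no block changed the call of a member. Scn4b gave no value with a filter at a mean of 5 TPM. With TPM alone, depth sets no stated limit here.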
